A study of Mus musculus with 1536 samples.

Results

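A set of 6 secreted proteins best known from the nervous system was followed in single lymphatic endothelial cells (LECs): *Reln*, *Nts*, *Ptn*, *Mdk*, *Ntn4* and *Slit2*. They are 6 of the 23168 genes in the deposited matrix, and each was described over all adult cells, about 840, together with 4 genes that mark LEC subtypes (*Stab2*, *Fndc1*, *Cldn11* and *Gja4*). The genes were picked by name after their levels in these cells, and the subtype genes that share their cells, were known, so the levels and differences below are descriptions and carry no test. The cells came from the nasopharyngeal mucosa of C57BL/6 mice of both sexes aged 10 to 12 weeks, and tissue of 30 mice was pooled before sorting. Cells positive for CD31 and PDPN were sorted singly into wells of plates, and Smart-seq3 libraries, which cover the full length of the cDNA, were made from each. Neither the sample labels nor the column names give a mouse or a plate, so the adult LECs are 1 sample without replicates, and batches could not be looked at. Counts of 100 cells or more are rounded to the nearest 10. Aged mice were not analysed here.

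Reelin, encoded by *Reln*, is a large extracellular glycoprotein that guides neuronal layering through the receptors VLDLR and ApoER2, and in collecting lymphatic vessels it is known as a signal from LECs to smooth muscle. Neurotensin, encoded by *Nts*, is a short peptide cut from a precursor, which acts in gut and brain through its own receptors. Pleiotrophin (*Ptn*) and midkine (*Mdk*) form a family of heparin-binding growth factors. Netrin-4 (*Ntn4*), a laminin-related basement membrane protein, and SLIT2 (*Slit2*), the ligand of Roundabout receptors, belong to families known for guiding axons and also act on vessels. Among the subtype genes, *Stab2* encodes a hyaluronan scavenger receptor, *Fndc1* a fibronectin type III domain protein, *Cldn11* a tight junction claudin and *Gja4* the gap junction protein connexin 37, and the last pair are known from lymphatic valves.

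The genes of the pair most abundant in these LECs differ in the sequence upstream of their start, which is shown here to place them in the genome. Sequences are from RefSeq on GRCm38.p6, which holds promoters of 5 of the 6 genes, and the *Mdk* promoter is missing there. Both are printed 5′ to 3′ on the minus strand. Capitals mark matches to the GC box GGGCGG in *Reln* (chr5:22344706-22344955) and to the AP-1 site TGACTCA, here on the other strand, in *Nts* (chr10:102490487-102490668, the stretch before the first annotated exon).
Reln: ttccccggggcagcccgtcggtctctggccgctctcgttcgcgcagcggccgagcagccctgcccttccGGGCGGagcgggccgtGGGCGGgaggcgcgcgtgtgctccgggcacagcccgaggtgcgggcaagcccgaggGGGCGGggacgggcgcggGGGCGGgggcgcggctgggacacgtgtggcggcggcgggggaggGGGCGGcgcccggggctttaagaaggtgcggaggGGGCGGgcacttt
Nts: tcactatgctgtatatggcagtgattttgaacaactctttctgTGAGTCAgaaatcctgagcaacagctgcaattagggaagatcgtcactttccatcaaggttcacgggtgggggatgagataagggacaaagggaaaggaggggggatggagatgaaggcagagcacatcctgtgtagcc
The 250 bases before the *Reln* start were 80% G or C with 37 CpG dinucleotides, those of *Nts* 48% with 2, and the median of 32851 mouse promoters was 52.4%. A GC box on either strand was present in 32.7% of those promoters and an AP-1 site in 4.46%. The searches also covered the cAMP response element TGACGTCA, present in 1.55% of promoters, and TATAAA, present in 12.4%, and neither was matched in these windows of *Reln* or *Nts*. A match is a run of letters only.

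The genes lie apart in the genome. On GRCm38, *Reln* spans chr5:21884454-22344702 (minus strand, 23.7 kb of merged exons), *Nts* chr10:102481756-102490486 (minus, 1.25 kb), *Ptn* chr6:36714929-36810220 (minus, 3.43 kb), *Mdk* chr2:91929805-91932297 (minus, 1.32 kb), *Ntn4* chr10:93640681-93747207 (plus, 3.74 kb) and *Slit2* chr5:47983138-48307733 (plus, 25.4 kb). Exons of *Reln* overlap an exon of the antisense gene *Gm10475*, and exons of *Stab2* overlap one of *Gm16268*. Whether strand was used in counting is not given in the sources used here, so reads of those stretches cannot be told apart.

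The sorted cells carried the defining markers of LECs. *Prox1*, the master regulator of lymphatic identity, was found in 97.7% of cells, *Flt4* (VEGFR3) in 99.8%, *Pdpn*, which the sort selected, in 95.2% and *Lyve1*, a hyaluronan receptor, in 86.8%. Of 5 immune markers, *Ptprc* and *Cd3e* were found in 0 cells. That allows a share of up to 0.356%, an approximate upper limit taken as 3 over the number of cells. The macrophage genes *Cd68*, *Lyz2* and *Csf1r* were found in 15.7%, 7.96% and 1.66%. Total reads per cell ran from 7433 to 3524358 with a median of 350746, and a gene was called found in a cell with at least 1 read. To compare cells at equal depth, about 790 cells were also thinned to 20000 reads each, leaving out 51 shallower cells. Shares are given with exact Clopper–Pearson 95% intervals, which cover counting error among these cells only. Levels are mean reads per 10000 reads of a cell ± SD over cells.

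*Reln* and *Nts* were abundant, *Ptn* was restricted to 27% of the cells, and *Mdk*, *Ntn4* and *Slit2* were sparse. Every cell had at least 1 of the 6 genes, 370 cells (43.9%) had 2 of them, about 280 had 3, 55 had 4, 6 had 5 and 0 had all 6.

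*Reln* was found in 96.9% of cells (95.5 to 97.97%), leaving 26 cells without a read, and in 91.3% after thinning. Its level was 11.1 ± 10.5 reads per 10000, with a lowest cell at 0, a median of 8.34 and a highest cell at 62.9. By mean level it stood above 99.5% of the 23168 genes. The level was spread over the whole population, since the 85 cells highest in *Reln* held 31.7% of the sum, and its coefficient of variation was 0.945. The share of cells with *Reln* was little affected by depth, from 94.3% in the quartile of cells with fewest reads to 99.5% in the quartile with most.

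*Nts* had nearly the same mean as *Reln* but another distribution. It was found in about 670 cells, or 79.1% (76.2 to 81.8%), and in 51.7% after thinning. The mean was 9.72 ± 25.5 reads per 10000, although the lowest cell was at 0, the median cell at 0.395 and the highest cell at 320.6. The top 85 cells held 74.9% of the summed level of *Nts*. Its coefficient of variation of 2.62 ranked 21 among the 1832 genes with a mean of at least 1 read per 10000. Most LECs had little or no *Nts*, and a minority had very high levels. Detection depended on depth, with *Nts* in 66.8% of cells in the lowest depth quartile and in 90.5% in the highest, whereas the mean level was 12.04 and 9.83 reads per 10000 in those quartiles. Per kilobase of merged exon, the level of *Nts* was 7.79 reads per 10000 and that of *Reln* 0.467. Merged exons join those of all annotated transcripts and can exceed any 1 of them, so such levels compare genes only roughly.

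*Ptn* was found in about 230 cells, or 26.96% (23.99 to 30.1%), and in 19.1% after thinning, at a mean of 0.692 ± 2.37 reads per 10000. The median cell was at 0 and the highest at 28.3, and the top 85 cells held 87.5% of the summed level. Where *Ptn* was found, the median was 1.01 reads per 10000, from a median of 14 reads.

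*Mdk*, the other member of that family, was found in 86 cells, or 10.2% (8.25 to 12.5%), at a mean of 0.145 ± 0.717 reads per 10000 and a highest cell at 10.6. It was found in 9.25% of the cells with *Ptn*, close to its share of 10.2% of all cells, and 21 cells had both.

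*Ntn4* was found in about 140 cells, or 17.1% (14.6 to 19.8%), but at low levels throughout. Its mean was 0.105 ± 0.341 reads per 10000, its highest cell was at 3.20, and 9 cells exceeded a natural log value of 1, which is 1.72 reads per 10000. *Ntn4* was in 7.11% of cells in the lowest depth quartile and 22.3% in the highest.

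*Slit2* was found in 18 cells, or 2.14% (1.27 to 3.36%), with a highest cell at 3.09 reads per 10000, and in 7 cells after thinning. It missed the filter of being found in at least 10% of cells, so 5 of the 6 genes entered the comparisons across genes, and *Mdk* lay just inside that filter. Per kilobase, the levels ran from *Nts* and *Reln* through *Ptn* (0.202 reads per 10000), *Mdk* (0.109) and *Ntn4* (0.0282) down to *Slit2* (0.000546). The SD over cells exceeded the mean for every one of these genes but *Reln*, and the distributions of all 6 overlapped.

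**Figure D1:**
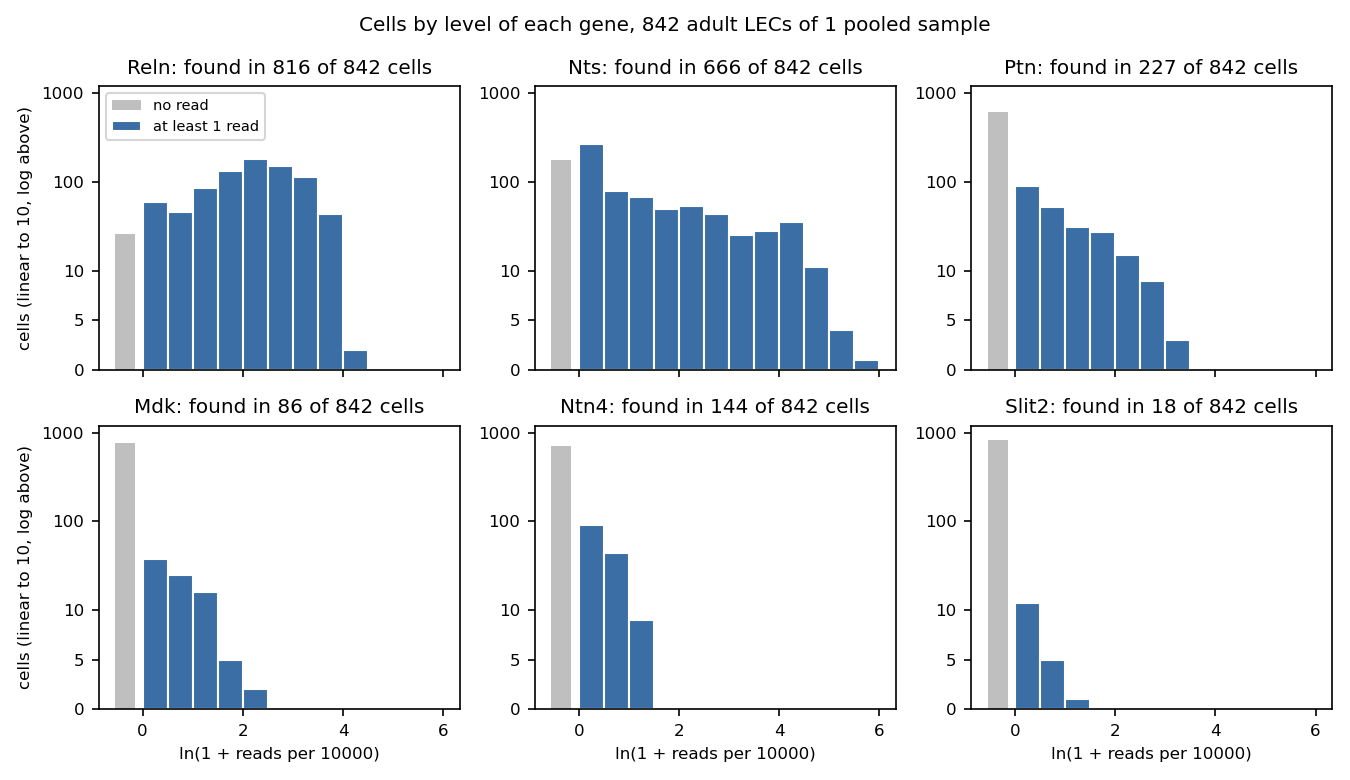
Number of cells (vertical axis, linear up to 10 and logarithmic above) by level of each gene, ln(1 + reads per 10000), in bins of 0.5, over the adult LECs of 1 pooled sample; grey bars are cells without a read. *Reln* peaked at middle levels with 26 cells at 0, *Nts* ran in a long tail up to the highest values, and most cells had no read of *Ptn*, *Mdk*, *Ntn4* or *Slit2*.

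The question then was which subtype genes share cells with these cues. *Stab2* was found in 57.8% of cells, *Gja4* in 50.5%, *Fndc1* in 38.1% and *Cldn11* in 37.3%. Most cells had more than 1 of them, 36.7% having 2, 19.95% having 3 and 38 cells having all 4, while 54 cells had none. For each subtype gene, the mean level in cells with it was divided by the mean in cells without it, and at least a 2-fold ratio was counted. Cells with a subtype gene were deeper, with a median of 434248 against 278595 reads for *Stab2* and 531825 against 257216 for *Fndc1*. For *Cldn11* it was 437998 against 295025.5 and for *Gja4* 488111 against 236186. Each ratio of a cue past 2-fold is therefore also given after thinning. The ratios of pathway and marker genes below are from all reads only.

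With *Stab2*, 2 of 5 tested genes passed, *Ntn4* higher and *Ptn* lower, where 2.85% of 9654 genes passed in either direction. With *Fndc1*, 1 of 5 passed, *Ptn* higher, against 1.65% of genes. With *Cldn11*, 1 of 5 passed, *Nts* higher, against 1.68%, and with *Gja4* 0 of 5 passed, against 1.42%. Because the genes had been picked with these ratios in view, nothing is read from the counts beside the background.

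*Nts* was high in cells with little *Stab2* and in cells with much *Cldn11*. In cells without *Stab2* it averaged 13.6 ± 31.1 reads per 10000 with a median of 2.04. In cells with *Stab2* it averaged 6.90 ± 19.96 with a median of 0.0813. The log2 ratio of -0.98 fell just short of 2-fold and became -1.36 after thinning. By the level of *Stab2*, *Nts* averaged 13.6 at 0, 11.8 at natural log values up to 1, 4.12 from 1 to 2 and 1.67 above 2, bins that held 42.2%, 26.6%, 13.9% and 17.3% of cells. In cells with *Cldn11*, *Nts* averaged 14.2 ± 32.4 against 7.03 ± 19.8 reads per 10000 without it. The log2 ratio of 1.02 was just past 2-fold and became 1.41 after thinning. By the level of *Cldn11*, *Nts* averaged 7.03 at 0, 7.24 up to 1, 18.99 from 1 to 2 and 30.7 above 2, the last in 36 cells. With *Fndc1* (log2 ratio -0.01) and *Gja4* (-0.24) the means were close.

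Joining *Cldn11* and *Gja4*, both known from valves, placed *Nts* with *Cldn11*. It averaged 17.4 ± 39.9 reads per 10000 in the 16.3% of cells with *Cldn11* alone and 11.8 ± 25.04 in the 21.02% with both, against 6.86 ± 17.2 in the 29.5% with *Gja4* alone and 7.19 ± 21.8 in the 33.3% with neither. Each SD exceeded its mean, and cells without *Nts* occurred in all 4 classes, in which it was found in 81.8%, 86.4%, 80.2% and 72.1% of cells. Median depth in these classes was 298593, 540891, 465654.5 and 187504.5 reads, and the shares are not thinned.

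*Ptn* followed *Fndc1* and was low in cells rich in *Stab2*. It was found in 40.2% (34.8 to 45.8%) of cells with *Fndc1* and in 18.8% (15.5 to 22.4%) of cells without. The means were 1.24 ± 3.16 and 0.357 ± 1.64 reads per 10000, a log2 ratio of 1.79, or 2.07 after thinning. Its share was larger at each step of *Fndc1*, with 18.8% of cells at 0, 31.3% up to a natural log value of 1, 43.5% from 1 to 2 and 66% (51.2 to 78.8%) above 2, in 33 of 50 cells. Median depth was 257216 reads in the first of these bins and between 443858 and 578416 in the others. In the 48 cells with *Fndc1* and none of the other subtype genes, against the 54 cells with none at all, the log2 ratio was 0.97 and thus within 2-fold.

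With *Stab2* the order was the opposite. *Ptn* averaged 0.395 ± 1.70 reads per 10000 in cells with *Stab2* and 1.10 ± 3.02 in cells without, a log2 ratio of -1.48, or -3.92 after thinning. With all reads and *Stab2* called only at a natural log value above 1, that ratio was -4.95. *Ptn* was found in 34.9% of cells at a *Stab2* value of 0 and in 13.01% above 2, where its mean was 0.0315. Where the genes were crossed, *Ptn* was found in 44.4% of cells with *Fndc1* but not *Stab2*, in 35.5% of cells with both, in 26.3% of cells with neither and in 14.6% of cells with *Stab2* alone. The intervals of the first (36.8 to 52.2%) and the last (11.02 to 18.9%) cover counting error among these cells only. From the same cells, the paper annotates a cluster of capillary LECs by *Fndc1* and *Ptn*. This pairing was therefore known beforehand, and the difference was not tested.

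*Ntn4* went the other way to *Ptn*. It was found in 22.6% (18.9 to 26.6%) of cells with *Stab2*, which were 110 cells, and in 9.58% (6.72 to 13.1%) of cells without, which were 34. The means were 0.144 ± 0.401 and 0.0531 ± 0.224 reads per 10000, a log2 ratio of 1.44, or 1.66 after thinning, but 0.67 with a pseudocount of 0.1 and 0.87 where cells with *Stab2* alone were set against cells with none of the 4 subtype genes. Its share was lowest, at 5.92% (2.87 to 10.6%), in cells with *Fndc1* but not *Stab2*, the class in which *Ptn* was most frequent. The log2 ratio of *Ntn4* for *Fndc1* was -0.90.

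*Reln* stayed within 2-fold in all 4 splits. Its log2 ratios were 0.30 for *Stab2*, 0.26 for *Fndc1*, -0.31 for *Cldn11* and -0.01 for *Gja4*. By the level of *Cldn11*, *Reln* averaged 11.95 ± 10.9 reads per 10000 at 0, 10.4 up to a natural log value of 1, 9.39 from 1 to 2 and 7.31 ± 7.56 above 2. By that of *Stab2* it averaged 9.79 ± 10.05 at 0, 10.8 up to 1, 13.9 ± 11.1 from 1 to 2 and 12.5 above 2. The highest average was in the 50 cells with a value of *Fndc1* above 2, at 20.96 ± 14.1 against 10.3 ± 10.1 in cells without *Fndc1*. *Mdk* had log2 ratios between -0.28 and 0.10, and that for *Stab2* turned to 0.58 after thinning and to 0.52 with a *Stab2* value above 1. *Slit2* was found in 12 cells with *Stab2*, 5 with *Fndc1*, 5 with *Cldn11* and 6 with *Gja4* among its 18, too few for a ratio.

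**Figure D2:**
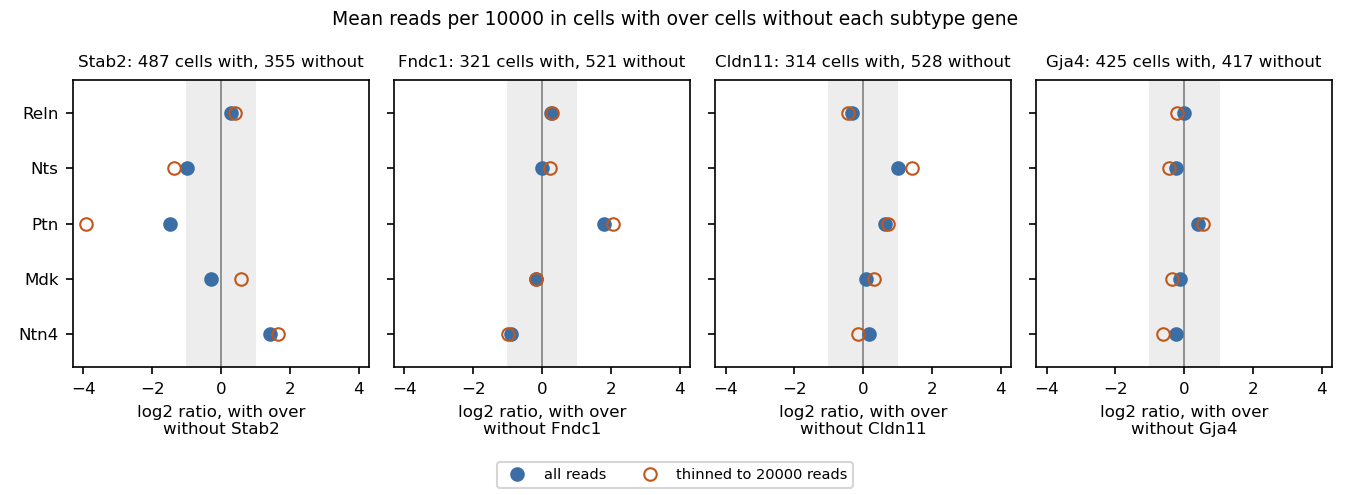
Log2 ratio of mean reads per 10000 in cells with over cells without *Stab2*, *Fndc1*, *Cldn11* or *Gja4* for the 5 genes found in at least 10% of cells, from all reads (filled) and after thinning to 20000 reads (open), with the subtype gene called again on the thinned reads; grey marks less than 2-fold. *Ptn* was left of the grey band for *Stab2* (-1.48) and right of it for *Fndc1* (1.79), *Ntn4* right of it for *Stab2* (1.44), and *Nts* at its edges for *Stab2* (-0.98) and *Cldn11* (1.02).

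**Figure D3:**
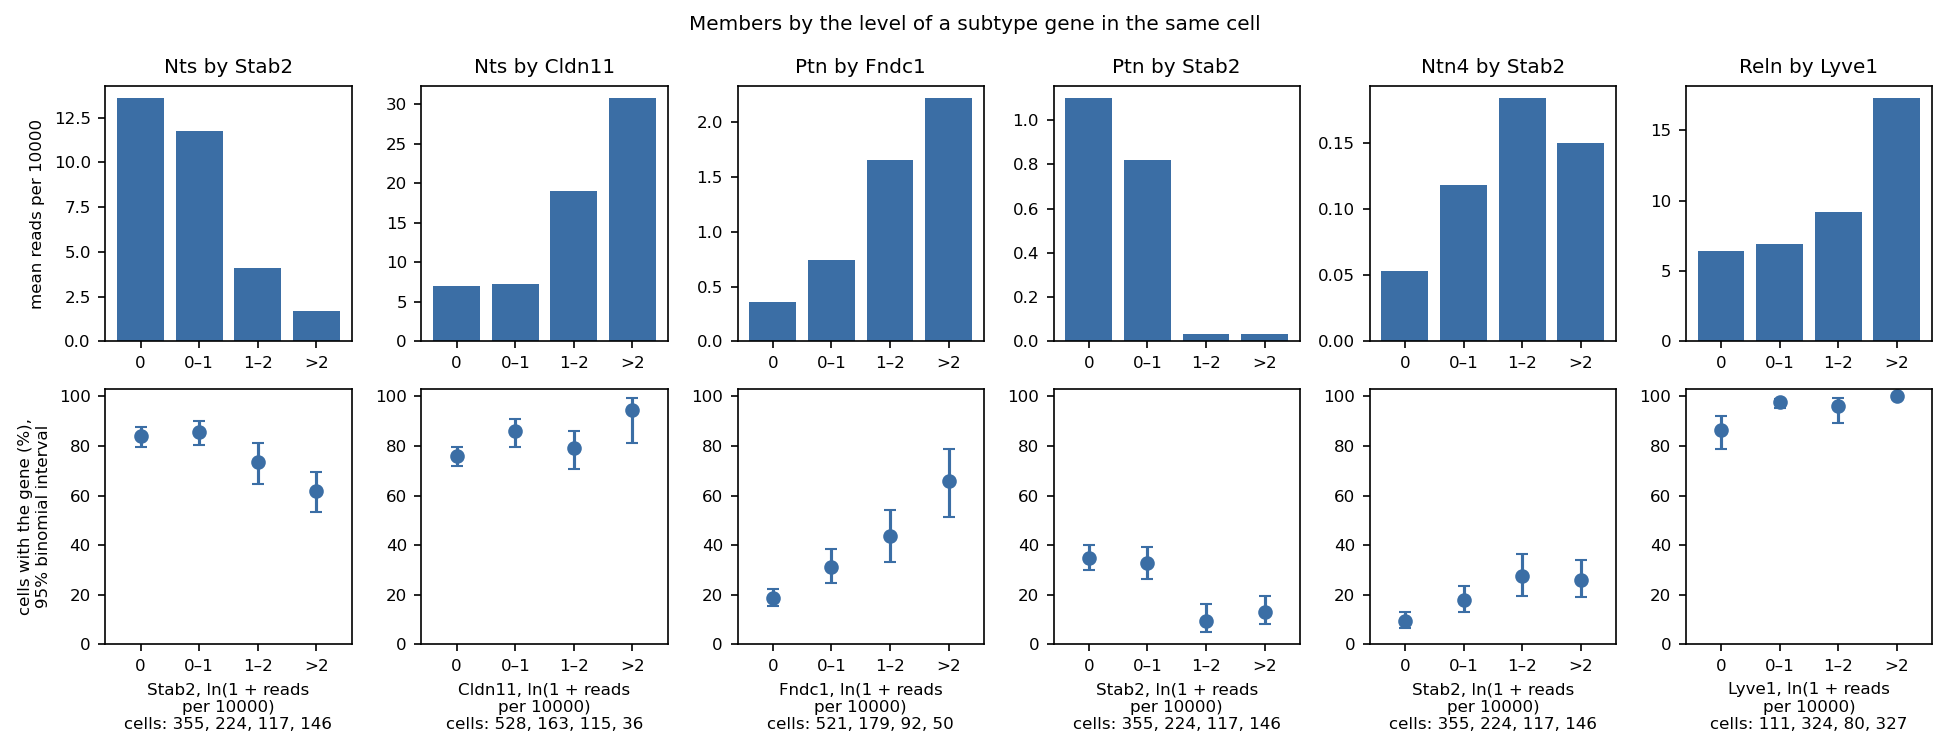
Mean reads per 10000 (upper bars, vertical scales differ) and share of cells with the gene (lower points, with exact 95% binomial intervals) by the level of another gene in the same cell, ln(1 + reads per 10000), with the number of cells per bin below. From the lowest to the highest bin, *Nts* averaged 13.6 and 1.67 by *Stab2* and 7.03 and 30.7 by *Cldn11*, *Ptn* was in 18.8% and 66% of cells by *Fndc1*, and *Reln* averaged 6.44 and 17.3 by *Lyve1*.

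*Reln* and *Nts*, both frequent, shared about 640 cells, which are 79.04% of cells with *Reln* and 96.8% of cells with *Nts*, but tended to opposite levels within them. In the quartile of cells lowest in *Reln*, *Nts* averaged 17.7 reads per 10000 with a median of 2.07, and in the quartile highest in *Reln* 4.55 with a median of 0.0629. *Ptn* was found in 38.9% (32.2 to 45.8%) of the cells in the quartile lowest in *Reln* and in 22.4% to 23.3% in the other 3 quartiles. Across about 840 cells, which share 1 pool of tissue and differ in depth, Pearson's r of natural log values was -0.25 for *Reln* with *Nts*, -0.23 for *Reln* with *Ptn* and 0.18 for *Nts* with *Ptn*, and after thinning -0.24, -0.21 and 0.19. Pairs with *Mdk*, *Ntn4* or *Slit2* had r between -0.07 and 0.11 and are no finding at these counts.

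The genes most like each cue across cells were sought among the 9655 genes found in at least 10% of cells. Of the 5 closest to *Reln*, 3 are on the list of LEC markers (*Mmrn1*, *Lyve1* and *Flt4*). The r was 0.55 for *Mmrn1* (multimerin 1), 0.52 for *Lyve1*, 0.42 for the actin-binding gene *Ablim3*, 0.40 for *Flt4* and 0.39 for the ectonucleotidase gene *Enpp3*, and after thinning these lay between 0.37 and 0.52. By the level of *Lyve1*, *Reln* averaged 6.44 reads per 10000 at 0, 6.90 up to a natural log value of 1, 9.22 from 1 to 2 and 17.3 above 2, bins that held 13.2%, 38.5%, 9.50% and 38.8% of cells. The most opposite genes were *Bcam*, a laminin receptor (r = -0.40), *Parm1*, *Procr* (the protein C receptor), *Nupr1* and *Nos3* (endothelial nitric oxide synthase, -0.32).

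*Nts* went with *Plat*, the tissue plasminogen activator (r = 0.38), the magnesium transporter gene *Slc41a1* (0.35), *Cd24a* (0.35), the syndecan gene *Sdc4* (0.34) and the stress-induced transcription factor gene *Atf3* (0.32). Opposite to it were *Igfbp4* (-0.37), *Stab2* (-0.33), *Gm525*, *Robo4* and *Selenop* (-0.31). *Atf3* is an early-response gene, and such genes are switched on when tissue is digested. Summed reads of 12 early-response and heat-shock genes were higher in cells with *Nts* (median 169.8 reads per 10000) than without (140.6). The mean of *Nts* ran from 4.27 in the quartile of cells lowest in that sum through 9.23 and 11.8 to 13.6 in the highest, and that of *Reln* from 14.97 through 10.3 and 10.5 to 8.58. The r of *Nts* with the 12 genes lay between 0.03 and 0.32 and that of *Reln* between -0.21 and -0.01. Without the quartile of cells highest in that sum, the log2 ratio of *Nts* for *Cldn11* was 1.06, and over all cells it was 1.02. The part of tissue digestion in the levels of *Nts* and *Reln* was not tested.

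*Ptn* went with *Igfbp5*, an insulin-like growth factor binding protein (r = 0.51), the retinol-binding gene *Rbp7* (0.42), *Ackr3*, a scavenging receptor for chemokines and adrenomedullin (0.37), the syndecan gene *Sdc1* (0.33) and *Gucy1a3*, a subunit of the nitric oxide receptor guanylate cyclase (0.32). *Ptn* was found in 7.53% (4.18 to 12.3%) of cells without *Igfbp5* and in 55.8% (49.02 to 62.3%) of cells with a natural log value of *Igfbp5* above 2. Opposite to it were *Igfbp7* (-0.28), *Angpt2* (-0.27) and *Stab2* (-0.25). For *Mdk* the closest gene was *Fam221b* (0.17) and for *Ntn4* the sodium channel gene *Scn3a* (0.22), and both values are weak. For *Slit2* the highest r (0.34, *Gm13461*) rested on 18 cells.

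**Figure D4:**
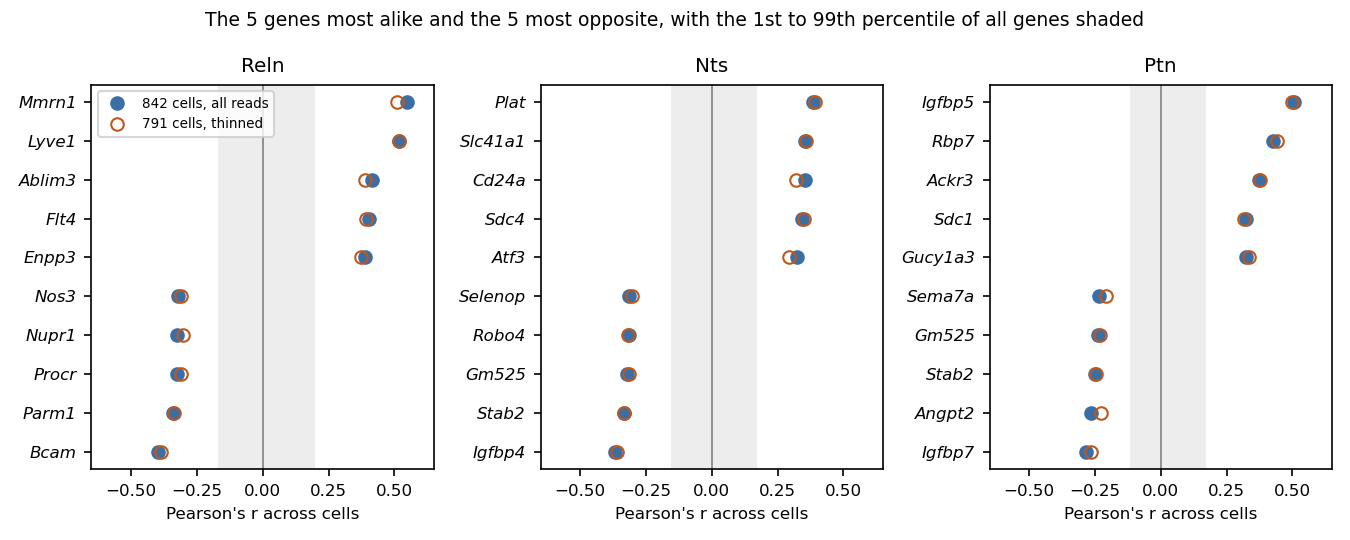
Pearson's r across cells of natural log values with *Reln*, *Nts* and *Ptn* for the 5 genes most alike and the 5 most opposite, from all cells and reads (filled) and from cells thinned to 20000 reads (open); the shaded band runs from the 1st to the 99th percentile over all compared genes. *Mmrn1* (0.55) and *Lyve1* (0.52) led for *Reln*, *Plat* (0.38) for *Nts* and *Igfbp5* (0.51) for *Ptn*, and thinning left all points outside the band.

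The receptors and other pathway genes of each cue were then looked at in the same cells, since the cues are secreted. Of the reelin pathway, 10 of 15 genes were found in at least 10% of cells, but its lipoprotein receptors and adaptor were low. *Vldlr* was found in 12.2% (10.1 to 14.6%) of cells and *Lrp8*, which encodes ApoER2, in 1.43%. *Dab1*, the adaptor that relays the signal, was found in 0 cells, with the same approximate upper limit of 0.356%. The kinase gene *Fyn* (52.7%), the adaptor gene *Crk* (61.9%) and *Pafah1b1* (74.7%), all broadly used genes, were frequent. Of the proteases that cut reelin, *Adamts4* (35.5%), *Adamts5* (42.8%) and *Plat* (65.4%) were found, and *Adamts2* and *Adamts3* in under 0.5% each.

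For neurotensin, 4 of 9 measured genes reached 10% of cells. *Ece1*, an endothelin-converting enzyme that also cleaves neuropeptides, was found in 99.9% of cells and *Cpe*, which trims peptide precursors, in 47.98%. The prohormone convertase genes *Pcsk1* (0.356%) and *Pcsk2* (0.594%) were nearly missing, and *Sort1*, encoding the neurotensin-binding sortilin, was found in 6.41%. *Ntsr1* and *Ntsr2* were not analysed here.

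Of 12 measured binding partners of pleiotrophin and midkine, 8 reached 10% of cells. Nucleolin (*Ncl*, 96.8%) and integrin β1 (*Itgb1*, 93.6%) are general genes, and *Sdc3* (58.9%), *Itga6* (56.5%) and *Itgav* (56.3%) were each found in most cells, as were *Sdc1* (51.8%) and *Itgb3* (50.7%). The receptor phosphatase gene *Ptprz1* was found in 0.475%. *Alk* was not analysed here.

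Of 8 measured genes of the netrin list, 3 reached 10%, namely *Ntn1* (90.9%), the repulsive netrin receptor gene *Unc5b* (88%), known from endothelium, and *Lamc1* (81.8%), whose laminin γ1 chain binds netrin-4. *Ntn1* was the more abundant netrin, at 0.618 reads per 10000 per kilobase against 0.0282 for *Ntn4*. *Neo1*, encoding neogenin, was found in 5.94%. Of the slit list, 5 of 11 reached 10%. *Robo4*, the endothelial Roundabout gene, was found in 84.4%, *Srgap2* in 69.95%, *Srgap3* in 63.3% and *Dag1* in 61.8%, while *Robo1* (0.475%), *Robo2* (0.594%), *Slit1* (0.831%) and *Slit3* (1.19%) were nearly missing. Of 15 genes listed for other neuropeptides, 4 were in the matrix. *Nmb*, encoding neuromedin B, was the only one of them past 10%, in 30.4% of cells.

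**Figure D5:**
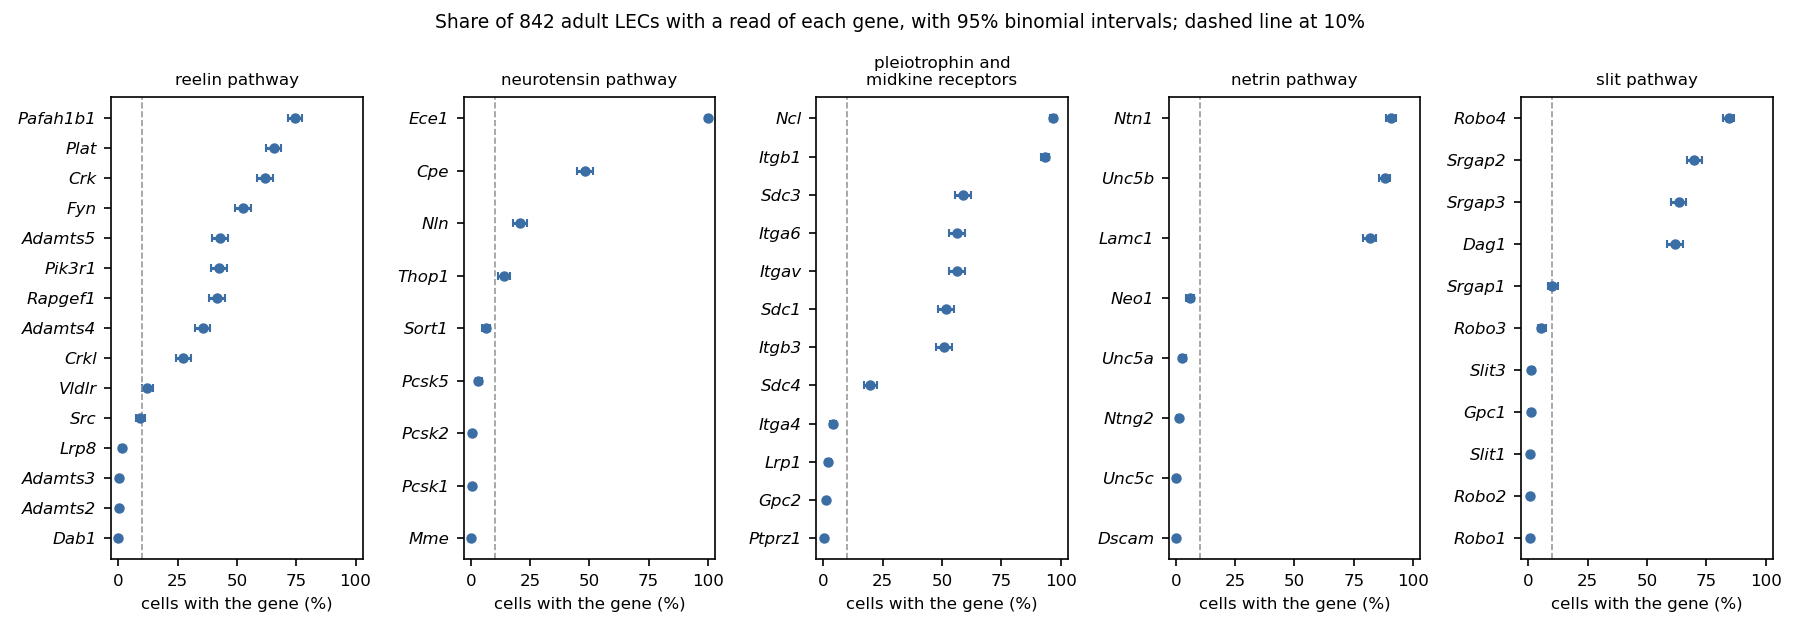
Share of the adult LECs with at least 1 read of each measured gene of the 5 pathway lists, with exact 95% binomial intervals; the dashed line marks 10% of cells. *Ece1*, *Ncl*, *Itgb1* and *Ntn1* lay above 90%, *Unc5b* and *Robo4* between 84.4% and 88%, and *Lrp8*, *Dab1*, *Ptprz1*, *Robo1* and *Robo2* near 0.

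A few of these partners differed by 2-fold or more between cells with and without a subtype gene, beside 2.85% of all genes tested for *Stab2*, 1.65% for *Fndc1*, 1.68% for *Cldn11* and 1.42% for *Gja4*. Of the 10 reelin genes, 2 were at least 2-fold lower with *Stab2*, *Vldlr* (log2 ratio -1.28) and *Plat* (-1.004), while *Vldlr* was higher with *Fndc1* (1.71) and *Plat* with *Cldn11* (1.52). The median log2 ratio of the reelin list was 0.12 for *Stab2*, -0.08 for *Fndc1*, 0.02 for *Cldn11* and -0.26 for *Gja4*, beside medians over all genes of 0.04, -0.01, -0.02 and 0.00. Of the 8 pleiotrophin and midkine partners, 1 passed, *Sdc4*, lower with *Stab2* (-2.10) and higher with *Cldn11* (2.16). In the slit list *Srgap1* alone passed, higher with *Stab2* (1.69) and lower with *Fndc1* (-1.86). No gene of the neurotensin or netrin lists passed in any split, at 4 and 3 genes. For *Stab2* the median log2 ratio was -0.15 for the neurotensin list, -0.12 for the pleiotrophin and midkine partners, 0.32 for the netrin list and 0.76 for the slit list. The medians of those 4 lists were between -0.48 and 0.08 for *Fndc1*, -0.26 and 0.06 for *Cldn11* and -0.34 and 0.20 for *Gja4*.

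Genes of other cell types were looked for in the cells with each cue. The median summed level of the immune, fibroblast, mural, epithelial and Schwann lists was 0 in cells with and in cells without each of the 6 genes. Of the blood endothelial list, *Emcn* (94.2%) and *Plvap* (77.8%) were found in most cells, whereas *Vwf* (5.11%) and *Flt1* (2.49%) were not. The neuronal list was led by *Stmn2* (47.5%), which was 2-fold higher with *Fndc1* (log2 ratio 1.28), while *Syt1* was at 0, and *Snap25*, *Tubb3* and *Elavl3* were each found in at most 1.54% of cells. At least 2 of 5 immune markers were found in 17 cells, with a summed level of up to 286.3 reads per 10000. These were 5 cells (5.81%) of those with *Mdk* and 12 (1.59%) of those without, and 16 (2.40%) with *Nts* and 1 (0.568%) without. At least 2 of 5 fibroblast markers were found in 4 cells (4.65%) with *Mdk* and 6 (0.794%) without, and in 1 of 18 cells with *Slit2*. Cells with these cues were deeper, and the shares with markers are not thinned. Median reads were 503762.5 with against 335355.5 without *Mdk*, and 457048.5 against 136230 for *Nts*. *Dcn*, a fibroblast matrix gene, was found in 23.3% of cells with *Mdk* and 11.1% without. The r of *Dcn* with *Mdk* was 0.15, and 0.12 after thinning. The part of depth in these shares, and of cells with such markers in the level of *Mdk*, was not tested. *Dcn* was also higher with *Cldn11* (log2 ratio 1.97) and lower with *Fndc1* (-1.68) and *Gja4* (-1.40). In the 740 or so cells without *Dcn*, shares were 78.9% for *Nts*, 26.96% for *Ptn*, 8.94% for *Mdk* and 1.90% for *Slit2*.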

How the data were processed

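Single adult LECs were sorted into plates and sequenced by Smart-seq3. Per the methods and the submitters' processing notes, the authors used STAR with mm10 for alignment and featureCounts (Subread) for counting, kept cells that had 2000 genes or more and no more than 10% of mitochondrial reads, and normalized with Seurat 4.1.0. Deposited values are natural log values, ln(1 + reads per 10000). The methods name a log2 step, but the exponential of each value minus 1 sums to 10000 in every cell, which fixes the base. Strand, multi-mapping and annotation are not given in the sources used here. Reads, not molecular identifiers, were used. Per the methods, genes expressed in too few cells were also removed. List genes called measured are those in the matrix, and why 24 list genes were missing from it was not looked at.

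Whole reads were recovered (100% of values, within 0.01 reads), and 791 cells were thinned to 20000 reads (seed 1). A gene counted as found with a value above 0. Splits compared mean reads per 10000, without a pseudocount, over genes found in at least 10% of cells. With 1 pooled sample no test was made. Positions are from GENCODE M21 on GRCm38. Python 3.11.15, NumPy 2.4.6, pandas 2.3.3, SciPy 1.17.1 and matplotlib 3.10.9 were used, and the steps were tested on simulated data.

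The genes and lists were chosen with earlier results of these data known. Genes named are the 6 cues and 4 subtype genes, the 5 genes with the highest r to each, up to 5 genes of each pathway list found in most cells and those past 2-fold, and marker genes. Further genes of a list and the most opposite genes were named after their values were seen. Alternatives changed the threshold for found, depth, the pseudocount, the filters on genes and cells and the measure of likeness. The 12 dissociation genes and the filters on *Dcn*, dissociation genes and blood endothelial markers were chosen after seeing the data.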

Additional observations from a re-analysis of the deposited data

How the results depend on the processing

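The share of cells with a gene depended on the threshold and on depth. With found set at a natural log value above 1, the shares were 84.3% for *Reln*, 37.8% for *Nts*, 10.1% for *Ptn*, 2.73% for *Mdk*, 1.07% for *Ntn4* and 0.119% for *Slit2*, and after thinning 91.3%, 51.7%, 19.1%, 7.84%, 10.2% and 0.885%. In cells with at least 3000 genes *Nts* reached 81.9%. Leaving out cells with 2 of 5 markers of any other cell type removed about 680 cells, which includes any cell with both *Emcn* and *Plvap*, and kept about 170, with *Ptn* in 34.3%, *Mdk* in 6.02%, *Ntn4* in 13.3% and *Slit2* in 0.602%. Not counting blood endothelial markers (39 cells left out) or leaving out the cells with *Dcn* kept every share within its interval.

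For *Stab2*, a pseudocount of 0.1 left 1 gene past 2-fold (*Ptn*, with *Ntn4* at 0.67), and *Nts* passed with a *Stab2* value above 1 (log2 ratio -2.22), after thinning and in cells with *Stab2* alone (-1.12), where *Ntn4* did not (0.87). For *Fndc1*, 2 genes passed with its value above 1, without the quartile highest in dissociation genes (*Ntn4* joining *Ptn* both times), and in 48 cells with *Fndc1* alone against 54 with none of the 4, where *Mdk* and *Ntn4* passed and *Ptn* did not (0.97). For 44 cells with *Gja4* alone against none, 2 passed, *Mdk* (-2.68) and *Ptn* (-1.22), the latter turned from 0.42 over all cells. For a subtype gene alone against none, 20.8% of all genes passed for *Stab2*, 23.8% for *Fndc1*, 24.6% for *Cldn11* and 25.1% for *Gja4*. With its value above 1 these shares were 6.25%, 5.51%, 3.92% and 2.35%, and after thinning 5.42%, 4.06%, 3.53% and 2.91%. The pseudocount left 0.715% for *Stab2*, and dropping the dissociation quartile gave 2.87% for *Fndc1*. Nothing is read from the counts beside these shares. With *Cldn11*, the ratio of *Nts* passed under all 6 alternatives that gave one. Of 120 log2 ratios under alternatives, 9 passed only there, 1 of them (*Ptn* with *Gja4*) in the opposite direction, and 3 no longer passed, while 0 of those past 2-fold over all cells changed sign. Differences of mean natural log values, were also taken, and 0 of 20 reached the natural log of 2 (*Nts* with *Cldn11* 0.44), while 4 had the opposite sign to the ratio (*Nts* and *Mdk*, for *Fndc1* and *Gja4*). The causes were not tested.

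The share of all genes past 2-fold was 18.6%, 17.2%, 17.3% and 16.6% for *Stab2*, *Fndc1*, *Cldn11* and *Gja4* among genes found in at least 1% of cells and 1.05%, 0.387%, 0.276% and 0.147% at 30%. Of the 5 genes most alike, 4 or 5 stayed for *Reln* and *Nts* under Spearman correlation, thinning and the 30% filter, and 4, 4 and 3 for *Ptn*. Those of *Mdk* (0, 1 and 1), *Ntn4* (2, 2 and 3) and *Slit2* (1, 2 and 0) mostly did not stay. With cells from 1 pool, no alternative could leave out an animal or plate. No paired analysis was possible because there is 1 sample.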
